A study of Mus musculus with 4 samples.

Results

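The response of MK2-deficient macrophages to IL-1α was read as the ratio, gene by gene, of 2 RNA sequencing libraries from i*MK2*-KO +*GFP* cells. These are immortalized bone marrow-derived macrophages of *MK2*-knockout mice that had been transduced with an empty *GFP* vector and sorted for *GFP*. One library came from untreated (UT) cells and one from cells that had received recombinant murine IL-1α (5 ng/mL, 1 h). Of the 55356 genes in the deposited table, the 12483 whose normalized counts averaged 10 or more over the 4 libraries of the series were taken as members. The other 2 libraries, UT and IL-1α, came from the same knockout cells transduced with *MK2* (i*MK2*-KO +*MK2*), whose genotype the sample labels give as wild type. All 4 cultures therefore share the knockout background, immortalization and viral transduction, and whether either line is a single clone is not given in the sources used here. The lines are called +*GFP* cells and +*MK2* cells from here on.

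IL-1α is an alarmin that dying or stressed cells release. It binds the IL-1 receptor, whose adaptor MyD88 and IRAK kinases signal through TRAF6 and TAK1 to the IκB kinases (IKK) and to the MAP kinases p38 and JNK. IKK releases NF-κB from its inhibitors, and NF-κB then drives cytokine and chemokine genes together with genes that shut the pathway off. MK2 (gene *Mapkapk2*) is a kinase downstream of p38. It phosphorylates tristetraprolin (gene *Zfp36*), a protein that binds AU-rich elements in the 3′ untranslated region (UTR) of cytokine mRNAs and directs their decay.

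Values are normalized counts, that is, counts divided by a size factor of the library and rounded. Each ratio is the log2 of (IL-1α + 1)/(UT + 1). The interval beside a ratio is the exact 95% Clopper-Pearson interval with both values taken as reads, so it covers counting error only. There was 1 library for each condition, so no ratio has a replicate check and no test was run. In bulk RNA, more cells that express a gene and more RNA per cell cannot be told apart. "Rose" and "fell" stand for a ratio past 2-fold. The libraries summed to between 24891906 and 25733071 normalized counts, with 17840 to 18152 genes above 0. *Mapkapk2* itself was at 561 (UT) and 1585 (IL-1α) in +*GFP* cells, and at 38357 and 38141 in +*MK2* cells. The transcript that was still counted in the knockout line thus rose 2.83-fold after IL-1α (log2 ratio 1.5, interval 1.36 to 1.64). The macrophage label held against its markers. All 14 macrophage markers passed the minimum and they summed to between 138686 and 154194 per library, whereas all 6 fibroblast markers were at 0 and the 6 lymphocyte, 6 granulocyte and 6 epithelial and endothelial markers summed to at most 15 in any library.

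After IL-1α, 281 of the 12483 genes (2.25%) were at least 2-fold higher in +*GFP* cells and 199 (1.59%) were at least 2-fold lower. Among the rises, 89 passed 4-fold and 42 passed 8-fold. The median log2 ratio of all genes was 0.01. The rises included genes listed as NF-κB inhibitors and genes for cytokines, chemokines, phosphatases and receptors. These kinds of gene are known from the first wave of an NF-κB response, but dependence on NF-κB was not tested here. Together the 281 genes took 99843 normalized counts in UT cells and 345493 after IL-1α.

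**Figure D1:**
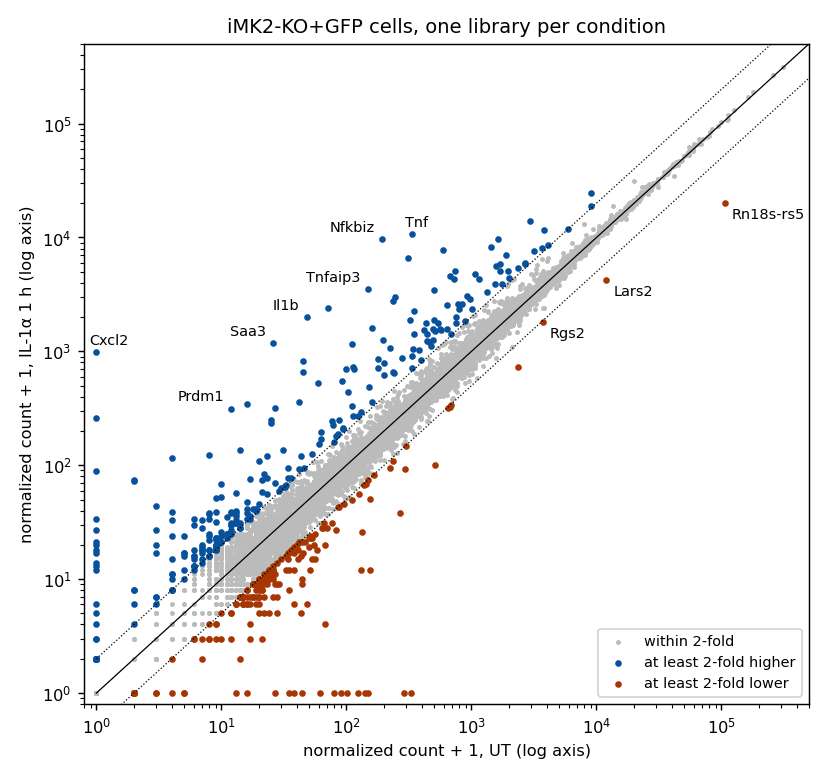
Normalized count + 1 of the 12483 genes in UT (x axis, log scale) and IL-1α-treated (y axis, log scale) +*GFP* cells, 1 library each. The solid line marks equal values and the dotted lines mark 2-fold; the 281 genes above the upper line reach 9.94 on the log2 scale (*Cxcl2*), and most genes below the lower line lie at low counts.

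The 20 largest rises, among genes with at least 50 normalized counts in either +*GFP* library, began with *Cxcl2* and ended with *Tnfsf9*. In order they were *Cxcl2*, *Gm10273*, *Gm2004*, *Nfkbiz*, *Saa3*, *Il1b*, *Mir155hg*, *Ccrl2*, *Pde4b*, *Tnf*, *Dusp8*, *Prdm1*, *Tnfaip3*, *Traf1*, *Acod1*, *Nfkbie*, *Cdc42ep2*, *Gpr84*, *Nfkbia* and *Tnfsf9*. Of these, 13 belong to the functional gene lists, which hold 445 of the 12483 genes tested. Since the lists were drawn up with earlier results of these data known, this count is partly built in. Annotated as protein-coding are 19 of the 20, and 10789 of the 12483 genes tested. In 19 of the 20, the stimulated +*GFP* library was the highest of all 4, and the exception was *Gm2004*. It was also the highest for 185 of the 281 rises. Both counts are partly fixed by the choice of genes for a high value in this library relative to the UT one. For *Gm10273* and *Gm2004*, predicted genes whose reads may be shared with near-identical copies, the values are uncertain. *Gm2004* went from 0 to 88 in +*GFP* cells and from 0 to 131 in +*MK2* cells.

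A promoter of 300 bases (250 before and 50 after the annotated start, RefSeq, build GRCm38.p6) was given for 17 of these 20 genes. A match to the 10-base NF-κB consensus, on either strand, was present in at least 1 promoter of 6 of the 17: *Cxcl2*, *Ccrl2*, *Pde4b*, *Tnfaip3*, *Nfkbie* and *Nfkbia*. Of all 32851 RefSeq promoters, 4.51% held a match, a share per promoter that is not in the same unit as this count of genes. *Ccrl2*, *Pde4b* and *Tnfaip3* had 3, 4 and 2 promoters, with a match in 1 of each. The 17 genes were picked for their large ratios, and the share over all genes that rose is not given, since 135 of 169 (79.9%) had an entry, just under the coverage set for such a share. The promoters of the chemokine *Cxcl2*, the largest rise, and of 3 genes that restrain NF-κB are shown as examples. Those of *Ccrl2* and *Pde4b*, which rank above these 3 genes, are not shown. Letters run 5′ to 3′ in the direction of the gene, and capitals mark the match.

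Cxcl2 promoter, chr5:90903649-90903948, plus strand: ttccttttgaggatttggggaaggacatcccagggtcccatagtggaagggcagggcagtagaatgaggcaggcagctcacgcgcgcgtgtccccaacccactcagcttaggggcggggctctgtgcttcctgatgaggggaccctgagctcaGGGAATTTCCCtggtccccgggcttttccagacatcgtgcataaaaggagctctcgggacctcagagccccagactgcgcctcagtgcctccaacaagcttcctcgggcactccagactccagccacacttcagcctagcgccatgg

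Tnfaip3 promoter, chr10:19015361-19015660, minus strand: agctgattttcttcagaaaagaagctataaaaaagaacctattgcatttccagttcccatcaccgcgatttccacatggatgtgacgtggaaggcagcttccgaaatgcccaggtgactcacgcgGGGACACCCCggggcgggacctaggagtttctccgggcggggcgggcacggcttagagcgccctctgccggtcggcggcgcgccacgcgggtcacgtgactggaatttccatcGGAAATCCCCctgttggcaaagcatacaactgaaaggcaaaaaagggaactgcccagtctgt

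Nfkbie promoter, chr17:45555450-45555749, plus strand: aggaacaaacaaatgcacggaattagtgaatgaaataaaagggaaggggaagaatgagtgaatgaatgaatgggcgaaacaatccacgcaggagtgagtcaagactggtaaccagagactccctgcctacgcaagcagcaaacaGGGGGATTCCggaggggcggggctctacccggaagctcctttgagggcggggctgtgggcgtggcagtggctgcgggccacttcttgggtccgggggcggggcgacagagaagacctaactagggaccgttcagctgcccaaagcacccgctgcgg

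Nfkbia promoter, chr12:55492598-55492897, minus strand: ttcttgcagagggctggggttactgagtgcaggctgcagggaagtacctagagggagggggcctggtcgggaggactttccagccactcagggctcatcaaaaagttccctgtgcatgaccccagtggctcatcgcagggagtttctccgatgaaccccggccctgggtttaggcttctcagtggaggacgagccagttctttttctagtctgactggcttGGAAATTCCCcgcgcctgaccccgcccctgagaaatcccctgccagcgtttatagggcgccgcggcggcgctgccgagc

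In *Cxcl2* the 2 matches overlap and begin 97 and 96 bases before the start. In *Tnfaip3*, which has 2 annotated starts, both matches lie at one of them, 125 and 12 bases before it. The match in *Nfkbie* begins 106 bases and that in *Nfkbia* 29 bases before the start. No match was found in the single promoter given for *Tnf*, *Il1b*, *Acod1* or *Traf1*, which says only that these letters are not within that window.

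Most genes listed as NF-κB inhibitors rose. The list also takes in *Nfkbiz* and *Bcl3*, for nuclear IκB proteins that do not act as inhibitors alone. Of the 15 genes of this list, all were measured, 10 rose and none fell, and the median log2 ratio was 2.13. *Nfkbiz*, which encodes the nuclear IκBζ, rose from 190 to 9664 (50.9-fold; log2 ratio 5.66, interval 5.46 to 5.88). *Tnfaip3* encodes A20, a ubiquitin-editing enzyme that turns off IKK signaling, and rose from 147 to 3524 (24-fold; log2 ratio 4.57, interval 4.35 to 4.83). *Nfkbia* and *Nfkbie* encode the cytoplasmic inhibitors IκBα and IκBε. The former rose from 587 to 7794 (13.3-fold) and the latter from 44 to 821 (18.7-fold). *Zc3h12a*, which encodes the endoribonuclease regnase-1, rose from 160 to 1590 (9.94-fold) and its relative *Zc3h12c* from 505 to 3468 (6.87-fold). The A20-binding protein genes did not move together. *Tnip3* rose from 222 to 1063 and *Tnip1* from 1340 to 3296, but *Tnip2* was at 618 and 550. *Bcl3* (30 and 135) and *Nfkbid* (796 and 2357) rose as well. *Nfkbib*, for IκBβ, was at 1010 and 1502, *N4bp1* at 1357 and 2249, and the deubiquitinase genes *Cyld* (1262 and 1351) and *Otulin* (1851 and 1742) had intervals that included 0.

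All 5 NF-κB subunit genes had intervals above 0, as did 20% of all genes tested, and 3 of them rose. *Relb*, a partner of the noncanonical pathway, rose from 99 to 706 (7.13-fold; log2 ratio 2.82, interval 2.53 to 3.15), and *Nfkb2*, for its p100 precursor, rose from 541 to 1787 (3.30-fold). *Rel*, which encodes the canonical subunit c-Rel, rose from 1016 to 2338 (2.30-fold). The other canonical subunit genes, *Rela* (1360 and 1890) and *Nfkb1* (1890 and 2594), stayed under 2-fold, at log2 ratios of 0.47 and 0.46.

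Upstream of NF-κB, 4 of 18 genes of the IKK, NIK, TRAF and cIAP list rose and none fell. The adaptor gene *Traf1* rose from 15 to 341 (22.7-fold; interval 3.76 to 5.36 on the log2 scale). The noncanonical IKK gene *Ikbke* rose from 501 to 1883 and *Map3k8*, for the kinase TPL-2, from 150 to 487. *Birc3*, for the ubiquitin ligase cIAP2, rose from 573 to 1546. The core kinases stood near their UT values. *Chuk* (IKKα) was at 2042 and 2235, *Ikbkb* (IKKβ) at 1469 and 1609, *Map3k7* (TAK1) at 2231 and 2289, and *Map3k14* (NIK) at 300 and 258. The scaffold gene *Ikbkg* (NEMO) was at 1872 and 1593 (log2 ratio -0.23, interval -0.33 to -0.14). *Traf2* was at 695 and 778 and *Traf3* at 1910 and 2448.

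The receptor pathway itself stayed within 2-fold. Of the 16 genes of the IL-1 receptor list, 12 were measured, none rose or fell, and the median log2 ratio was 0.11. *Il1r1*, the signaling receptor, was at 63 and 38 (log2 ratio -0.71, interval -1.35 to -0.13), and its co-receptor gene *Il1rap* at 365 and 380. *Irak2* had the highest ratio of the list, with 628 and 956 (0.61). *Il1rn*, for the receptor antagonist, was at 663 and 897, and *Myd88* at 3321 and 3706. Likewise, none of the 16 measured MAP kinase genes passed 2-fold. *Mapk14*, for p38α, was at 3545 and 3515, and *Mapkapk3*, for the MK2 relative MK3, at 2072 and 2332.

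**Figure D2:**
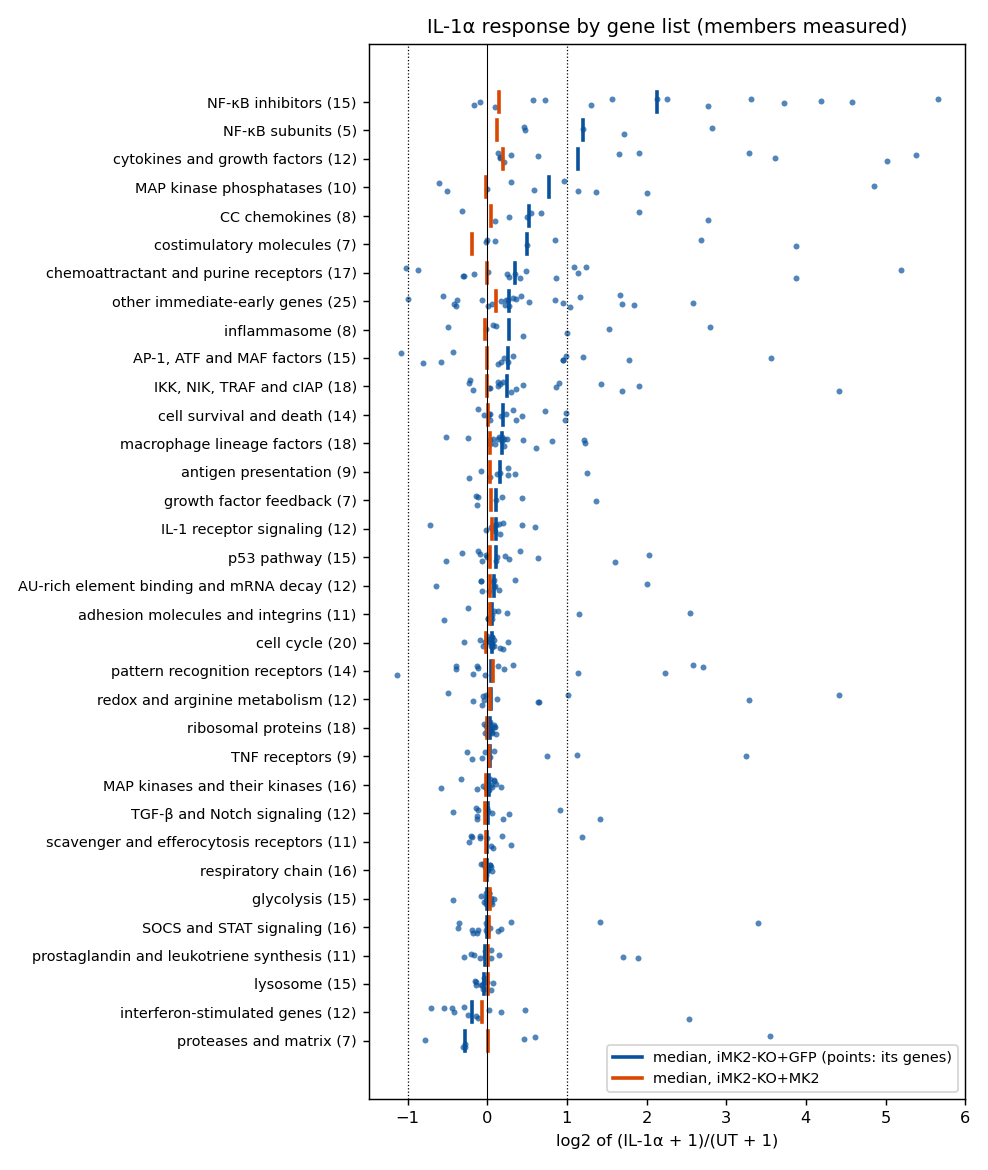
Log2 of (IL-1α + 1)/(UT + 1) in +*GFP* cells (x axis; points, 1 per gene) for the functional lists with at least 5 genes measured, the number measured in brackets. Blue bars mark each list's median in +*GFP* cells and orange bars that in +*MK2* cells. The medians of the NF-κB inhibitors (2.13), NF-κB subunits (1.20) and cytokines (1.14) lie farthest right, and the orange medians of these lists are 0.15, 0.13 and 0.20.

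Of 27 cytokine and growth factor genes, 12 passed the minimum and 6 of these rose. *Tnf* reached the highest level of the list, from 332 to 10784 (32.5-fold; log2 ratio 5.02, interval 4.86 to 5.18). *Il1b* rose from 47 to 2007 (42.7-fold; interval 5.00 to 5.87) and *Il1a* from 13 to 136 (10.5-fold; interval 2.56 to 4.33). *Tnfsf9*, for the T cell ligand 4-1BBL, rose from 242 to 2983, *Csf1*, for the macrophage growth factor, from 1153 to 4332, and *Pdgfb* from 198 to 623. *Il18* (65 and 73), *Tgfb1* (3878 and 4336), *Il15* (94 and 103) and *Osm* (187 and 231) did not pass 2-fold. Several cytokines that macrophages are known for were at or near 0 at 1 h. *Il6* was listed at 0 and 2, *Il10*, *Il12a*, *Il12b* and *Csf2* at 0 in both, and *Ifnb1* at 0 and 3, so no fold is given for them.

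Among chemokines, the strongest value was that of *Cxcl2*, a neutrophil attractant. It was listed at 0 in UT cells and at 981 after IL-1α, that is, at least 327-fold higher when the 0 is replaced by the 3 counts it allows. Its close relatives did not show such a value: *Cxcl1* was at 1 and 0 and *Cxcl3* at 0 and 2. *Cxcl10*, a T cell attractant, rose from 58 to 522 (9.0-fold; interval 2.78 to 3.59). The macrophage inflammatory protein genes *Ccl4* and *Ccl3* rose from 671 to 4570 (6.81-fold) and from 1872 to 6994 (3.74-fold). The monocyte attractant *Ccl2* was at 1216 and 1773 (log2 ratio 0.54, interval 0.44 to 0.65), *Ccl9* at 1625 and 2304, *Ccl5* at 34 and 55 and *Ccl7* at 152 and 184. In sum, 2 of the 3 measured CXC genes and 2 of the 8 measured CC genes rose, and 9 of 12 CXC genes and 6 of 14 CC genes were under the minimum.

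The AP-1 factors and other immediate-early genes divided. Of 15 AP-1, ATF and MAF genes measured, 3 rose and 1 fell. *Maff* rose from 26 to 318 (12.2-fold), *Junb* from 1685 to 5795 (3.44-fold) and *Atf3* from 2347 to 5408 (2.30-fold), and *Jun* with 1948 and 3879 lay just under 2-fold. *Fos* fell, from 143 to 67 (log2 ratio -1.08, interval -1.53 to -0.67), and *Fosb* was at 6 and 3. Of the 25 other immediate-early genes measured, 6 rose and 1 fell. The stress-response gene *Ier3* rose from 722 to 4327 (5.99-fold), the antiproliferative *Btg2* from 442 to 1429 and *Klf6* from 2667 to 5968. *Gadd45a* (20 and 74), *Egr2* (10 and 34) and *Phlda1* (31 and 65) rose from low values. *Egr1*, often the first gene of a growth factor response, was at 42 and 61, *Ier2* at 568 and 573, *Nr4a1* at 153 and 159 and *Myc* at 200 and 236. *Gadd45g* was the gene that fell, at 17 and 8, with an interval that included 0.

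Genes that restrain signaling rose beside the cytokines. Of 10 MAP kinase phosphatase genes measured, 4 rose: *Dusp8* (3 and 115; log2 ratio 4.86, interval 3.68 to 7.56), *Dusp2* (177 and 715), *Dusp16* (490 and 1261) and *Dusp1* (85 and 188). *Dusp8* and *Dusp16* act mainly on JNK and p38. *Dusp6* and *Dusp7*, which act on ERK, were at 84 and 55 and at 1230 and 866, with both intervals below 0. *Socs3*, an inhibitor of cytokine receptor signaling, rose from 110 to 1167 (10.6-fold; interval 3.12 to 3.70). *Socs1* was at 3 in both libraries. *Zfp36* rose from 641 to 2569 (4.01-fold; log2 ratio 2.00, interval 1.88 to 2.13), and it was the only one of the 12 measured genes for AU-rich element binding and mRNA decay to pass 2-fold. Its relative *Zfp36l2* was at 3729 and 2383 (log2 ratio -0.65, interval -0.72 to -0.57), whereas *Elavl1*, for the stabilizing protein HuR, was at 2198 and 2347.

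AU-rich elements were counted in the 3′ UTR of each gene (longest annotated, GENCODE M21) as the 7-base motif TATTTAT. This property was chosen after the values had been seen. Of the 166 protein-coding genes that rose, had a mean of at least 10 in +*GFP* cells and had a 3′ UTR, 68 (41.0%) held the motif. It was found in 13 of 63 genes that fell (20.6%) and in 3139 of 10481 of all such genes tested (29.9%). Among the genes that rose at least 4-fold it was 31 of 62 (50%). Median 3′ UTR length was 1363 bases for genes that rose and 1373 for all, and A and T made up 54.5% and 55.6% of the letters. These shares are descriptions without a test. The 30 bases densest in ATTTA are shown for *Tnf*, *Cxcl2*, *Ptgs2* and *Il1b*, with each ATTTA in capitals. They are examples of induced genes rich in the motif, and their whole 3′ UTR held 8, 7, 6 and 3 of the 7-base motifs. Other induced genes, among them *Nfkbiz*, *Saa3*, *Traf1* and *Nfkbie*, held 0, and *Elavl1*, which did not rise, held 8.

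Tnf 3′ UTR: attATTTAttATTTATTTAttATTTATTTA

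Cxcl2 3′ UTR: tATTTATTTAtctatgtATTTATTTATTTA

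Ptgs2 3′ UTR: ccatATTTATTTATTTAtgtgaagaATTTA

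Il1b 3′ UTR: caaccacttacctATTTATTTAtgtATTTA

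**Figure D3:**
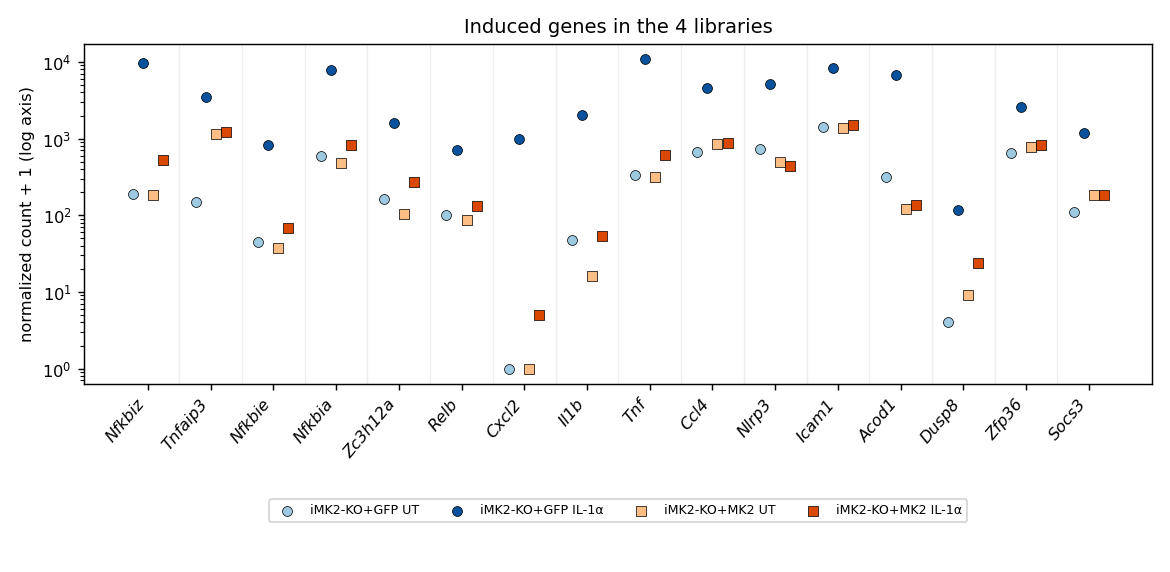
Normalized count + 1 (y axis, log scale) of 16 induced genes in the 4 libraries, with 1 point for each library and no error bars because each condition has 1 library. The stimulated +*GFP* library is the highest in every gene shown; for *Cxcl2* the UT libraries are at 0.

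Receptors and adhesion molecules rose in part. Of 14 pattern recognition receptor genes measured, 4 rose: *Tlr2* (1630 and 9796, 6.01-fold), *Nod2* (111 and 732, 6.59-fold), the mycobacterial glycolipid receptor *Clec4e* (2965 and 13917, 4.69-fold) and the lipopolysaccharide co-receptor *Cd14* (3652 and 8072, 2.21-fold). *Tlr4* was at 2299 and 2130, *Tlr7* at 5004 and 4437, and *Tlr8* fell from 109 to 49. *Icam1*, the ligand of leukocyte integrins, rose from 1421 to 8329 (5.86-fold) and the fibronectin receptor subunit *Itga5* from 1990 to 4415, while the other 9 measured genes of that list did not pass 2-fold. *Fas*, the death receptor, rose from 24 to 236 and *Tnfrsf1b*, for TNF receptor 2, from 2690 to 5861. *Tnfrsf1a*, for TNF receptor 1, was at 2503 and 2095 (log2 ratio -0.26, interval -0.34 to -0.17). *Icosl* rose from 196 to 1260 and *Cd69* from 2 to 43, but *Cd86* was at 1054 and 1043.

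Of 17 chemoattractant, purine and related receptor genes measured, 5 rose and 1 fell. The fatty acid receptor *Gpr84* rose from 44 to 659 (15.0-fold) and the chemerin-binding receptor *Ccrl2* from 1 to 72 (log2 ratio 5.19, interval 3.65 to 11.49). *C5ar1* (1768 and 3889), the adenosine receptor *Adora2b* (52 and 124) and the prostaglandin receptor *Ptger4* (395 and 839) also rose. *Rgs2*, which shortens G protein signaling, fell from 3713 to 1824 (2.04-fold lower; log2 ratio -1.03, interval -1.11 to -0.94), and the chemokine receptor *Cxcr4* was at 451 and 246. Prostaglandin synthesis moved at the inducible enzymes. *Ptgs2* (COX-2) rose from 415 to 1544 (3.72-fold) and *Ptges* from 11 to 38, and the constitutive *Ptgs1* was at 2168 and 1888.

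In the inflammasome list, *Nlrp3* rose from 737 to 5124 (6.95-fold; log2 ratio 2.80, interval 2.69 to 2.91) and *Casp4*, for caspase-11, from 77 to 224. *Gsdmd* also passed the formula with values of 0 and 1, for which no fold is given; in +*MK2* cells it was at 259 and 216. *Casp1* (1030 and 1110), *Aim2* (1565 and 1642) and *Nek7* (2272 and 2242) did not pass 2-fold, and the adaptor *Pycard* was listed at 0 in all 4 libraries. None of the 14 survival and death genes measured passed 2-fold, although *Cflar* (2108 and 4202) and *Bcl2l11* (1311 and 2579) lay just under it and *Mcl1* was at 7895 and 13062.

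Metabolic effectors and interferon-stimulated genes rose singly. *Acod1*, which makes itaconate, rose from 311 to 6660 (21.4-fold; log2 ratio 4.42, interval 4.26 to 4.59). *Nos2*, the inducible nitric oxide synthase, was at 3 and 38 (log2 ratio 3.29, interval 2.01 to 6.0), and the autophagy receptor gene *Sqstm1* went from 5955 to 11976. *Sod2* was at 3986 and 6220 and *Slc7a11* at 1686 and 2637. *Irf1* rose from 324 to 1885 (5.82-fold) and was the only one of 12 measured interferon-stimulated genes to pass 2-fold, and their median log2 ratio was -0.19. *Isg15* was at 60 and 61, *Oasl2* at 155 and 95 and *Irf7* at 140 and 96.

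Lists that describe the resting cell stayed within 2-fold in full. None of 15 lysosomal, 15 glycolytic, 20 cell cycle, 18 ribosomal protein or 16 respiratory chain genes measured rose or fell, with medians between -0.04 and 0.06. In the lineage list, *Id3* rose from 751 to 1765 and *Tfec* from 475 to 1104, but *Spi1*, for the lineage factor PU.1, was at 4782 and 5524. In the p53 list, *Gdf15* rose from 433 to 1775 and *Plk2* from 1684 to 5111, whereas *Cdkn1a* was at 2612 and 3157 and *Mdm2* at 2515 and 3903. Further members that rose singly were *Skil* (757 and 2023), *Ets2* (1967 and 5054), *H2-K1* (3193 and 7617, uncertain because of closely related class I genes), *Olr1* (17 and 40) and *Cish* (5 and 15). Over all 35 lists, 445 of 536 genes were measured. Of these, 76 rose and 4 fell, beside 2.25% and 1.59% of all genes; since the lists were drawn up with earlier results known, the difference from that background is a description.

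Outside the lists, 52 further protein-coding genes with a mean of at least 50 in +*GFP* cells rose. Those named here beyond the 20 largest rises were chosen after their values had been seen. *Saa3*, an acute-phase protein of macrophages, rose from 25 to 1180 (47.2-fold), *Pde4b*, which degrades cyclic AMP, from 70 to 2404 (34.3-fold), and *Prdm1*, for the repressor BLIMP1, from 11 to 314 (28.5-fold). *Mir155hg*, the host transcript of miR-155, went from 1 to 74 (log2 ratio 5.23, interval 3.69 to 11.53). Regulators or members of the small GTPase families that rose included *Cdc42ep2* (7 and 122), *Spata13* (24 and 247), *Rapgef2* (344 and 1421), *Rasgef1b* (1070 and 4820) and *Rab20* (102 and 442). Regulators of transcription and chromatin included *Kdm6b* (335 and 909), a histone H3K27 demethylase, and *Nfe2l2* (4078 and 8598), for the redox factor NRF2. *Pim1* (348 and 2269), *Tnfaip2* (3774 and 11609), *Slfn2* (1563 and 5667), *Ppp1r15a* (343 and 1040) and the inhibitory receptor gene *Lilrb4a* (9005 and 24371) rose as well; *Lilrb4a* and *Lilrb4b* are close paralogs, so their split is uncertain.

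The 199 genes that fell differed from the rises in gene type and level. Protein-coding genes made up 201 of the 281 rises (71.5%) but 100 of the 199 falls (50.3%), and pseudogenes made up 48 and 50. The 12483 genes tested included 10789 protein-coding genes, of which 1.86% rose and 0.927% fell, and 805 pseudogenes, of which 5.96% rose and 6.21% fell. Over all genes tested these shares were 2.25% and 1.59%. Of the genes with a mean of at least 100, 115 rose and 23 fell. The 20 largest falls held 3 protein-coding annotations, *Gm4767*, *Fam220a* and *Gm17655*, and no gene of the lists. In all 20, the UT +*GFP* library was the highest of the 4, as it was for 94 of the 199 falls. Choosing genes for a high UT value relative to the stimulated +*GFP* library partly fixes both counts.

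Several of these 20 are structural RNAs. *Rn18s-rs5*, annotated as an 18S ribosomal RNA-related sequence, stood at 106016 in UT and 20229 in stimulated +*GFP* cells, against 13482 and 12287 in +*MK2* cells. It took 0.425% of the UT +*GFP* library and between 0.049 and 0.0786% of the other 3. The 7SL RNA genes *Rn7s1* (507 and 100) and *Rn7s2* (148 and 0), the 7SK gene *Rn7sk* (132 and 25) and the RNase MRP component *Rmrp* (66 and 3) were also highest in that library. *Lars2*, a mitochondrial leucyl-tRNA synthetase gene, went the same way with 12021 and 4232, against 2798 and 2753 in the other line. The sample labels describe selection of polyadenylated RNA, and the study's methods describe depletion of ribosomal RNA. The part that differences in RNA selection between libraries have in these falls was not tested, and with 1 library per condition the treatment and the library cannot be told apart. *Gm6361* (327 and 0) and *Gm10233* (287 and 0) are processed pseudogenes whose reads can be shared with near-identical copies, so their values are uncertain. In +*MK2* cells they were at 268 and 0 and at 0 and 231.

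**Figure D4:**
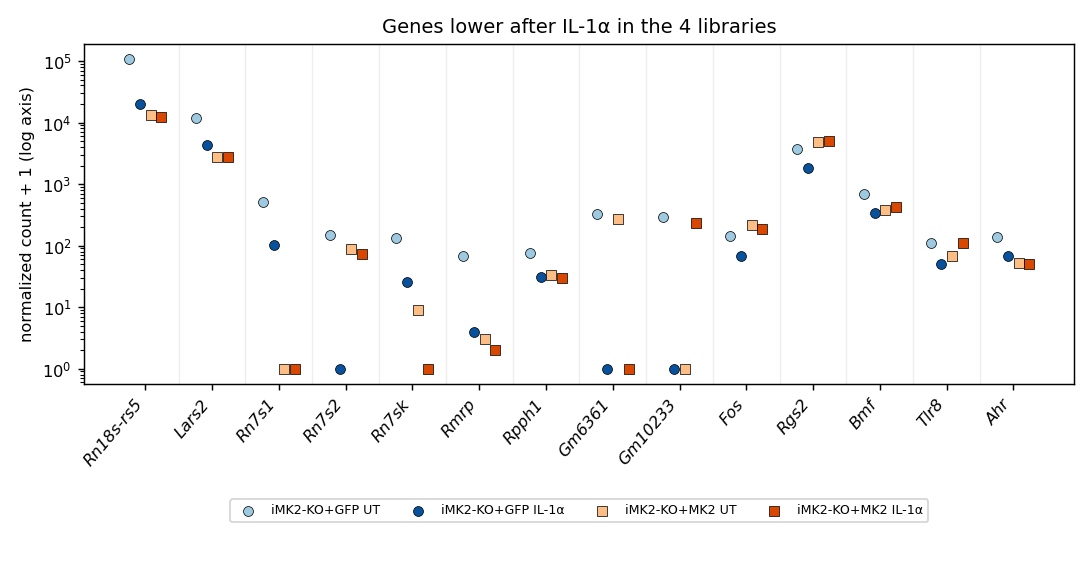
Normalized count + 1 (y axis, log scale) of 14 genes that were lower after IL-1α in +*GFP* cells, in the 4 libraries, with 1 point for each library and no error bars. *Rn18s-rs5* is at 106016 in the UT +*GFP* library and at most 20229 in the other 3, and *Rgs2* is lowest, at 1824, in the stimulated +*GFP* library.

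Of the protein-coding falls, 24 had at least 50 normalized counts in UT cells. Beside *Rgs2*, *Fos*, *Tlr8* and *Lars2*, and chosen after their values had been seen, they included *Bmf* (681 and 334), a proapoptotic BH3-only gene, *Osgin1* (300 and 146), an oxidative stress-induced growth inhibitor gene, *Ahr* (137 and 66), the aryl hydrocarbon receptor, *Fcgrt* (126 and 55), the neonatal Fc receptor, and *Zfp618* (292 and 91). All but *Zfp618* and *Lars2* of those named lay between 2.04-fold and 2.29-fold lower.

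The number of genes past 2-fold depended on expression level. Among genes with a mean between 10 and 30, 8.20% rose and 9.13% fell, and in +*MK2* cells 5.18% rose and 6.97% fell. Of the 3432 genes with a mean between 1000 and 3000, 28 rose and 1 fell in +*GFP* cells, and 1 rose and none fell in +*MK2* cells. Of the 1929 with a mean of at least 3000, 16 rose and 3 fell in +*GFP* cells, and none passed 2-fold in +*MK2* cells. Of the 281 rises, 47 averaged under 10 in the +*GFP* libraries and passed the minimum through the other line, as did 43 of the falls. Of these, 15 and 12 had values of at most 3 in both +*GFP* libraries, so the counts at low levels carry little information. The interval excluded 0 for 225 of the rises and 140 of the falls. Over all 12483 genes it lay above 0 for 20% and below 0 for 12.3% in +*GFP* cells, and for 11.4% and 8.23% in +*MK2* cells.

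**Figure D5:**
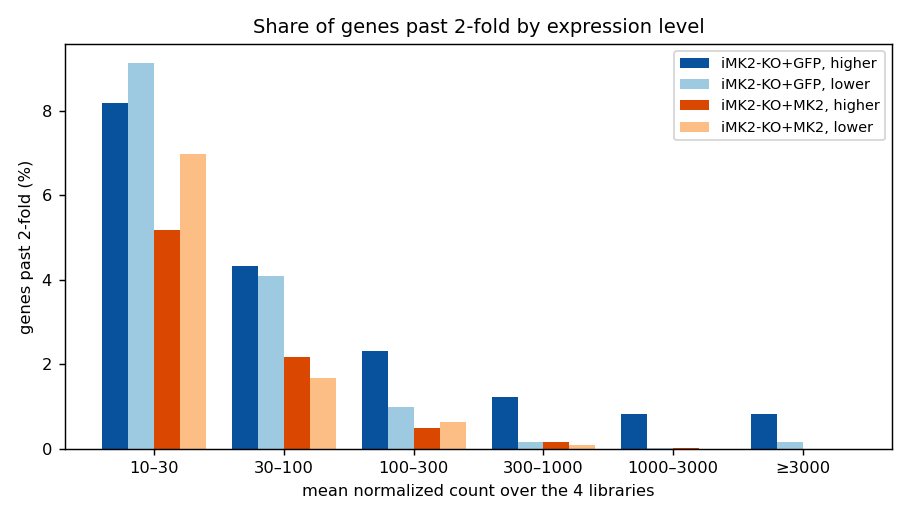
Share of genes past 2-fold after IL-1α (y axis, percent) by mean normalized count over the 4 libraries (x axis, 6 classes), for rises and falls in each line. Shares of rises and falls are alike at 10 to 30 counts (8.20 and 9.13% in +*GFP* cells), and above 300 counts the rises of +*GFP* cells are the tallest bars.

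The same genes were then read in +*MK2* cells, where 111 genes (0.889%) rose and 129 (1.03%) fell. Of the 281 rises, 22 also rose there, which is 7.83% of the one list and 19.8% of the other. Of the 199 falls, 18 also fell there (9.05% and 14%), and 18 of the rises fell there, as 18 of the falls rose. These shares rest largely on low counts, since 72 of the 111 rises and 97 of the 129 falls of +*MK2* cells averaged 10 to 30. When the 4-library average had to reach 100, 115 genes rose in +*GFP* cells, 13 in +*MK2* cells and 7 in both. For falls these counts were 23, 12 and 2. The median log2 ratio of the 281 genes was 1.48 in +*GFP* cells, where it was fixed by the choice of genes, and 0.08 in +*MK2* cells. Of the 20 largest rises, 8 passed 2-fold in both lines: *Cxcl2* (0 and 4), *Gm2004*, *Nfkbiz* (183 and 526), *Il1b* (15 and 52), *Mir155hg* (1 and 3), *Pde4b* (20 and 75), *Dusp8* (8 and 23) and *Traf1* (4 and 10), the values in brackets being those of +*MK2* cells. Of these 8, *Cxcl2*, *Mir155hg* and *Traf1* stood at so few counts in +*MK2* cells that their intervals there included 0. *Zc3h12a* (104 and 268) and *Map3k8* (85 and 201) rose in both as well. *Tnf* lay just under with 315 and 608, and *Nfkbia* was at 480 and 815. Among the lists, 2 of the 15 NF-κB inhibitors and none of the 5 NF-κB subunits rose in +*MK2* cells, and over all lists 10 of the 445 measured genes rose and 3 fell, where 76 and 4 had done so in +*GFP* cells. Changes under 2-fold were more common. In +*MK2* cells the interval lay above 0 for 9 of the 15 inhibitors and 4 of the 5 subunits, beside 11.4% of all genes tested. *Relb* (86 and 131) and *Nfkbie* (36 and 68) were higher after IL-1α there but under 2-fold. *Prdm1* (14 and 25) and *Saa3* (9 and 17) had intervals there that included 0 (-0.16 to 1.89 and -0.33 to 2.27). *Ccrl2* was at 0 in both +*MK2* libraries. Other genes showed nearly equal values in +*MK2* cells, among them *Tnfsf9* (264 and 270), *Acod1* (119 and 137), *Nlrp3* (490 and 445), *Ccl4* (842 and 883), *Icam1* (1392 and 1527), *Zfp36* (788 and 814), *Irf1* (343 and 338) and *Socs3* (182 and 185). For *Tnfaip3* the UT values differed between the lines, at 147 in +*GFP* and 1147 in +*MK2* cells, and the stimulated +*MK2* library was at 1207. With 1 library per condition, the difference between the responses of the lines was not tested.

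The genes that rose had a shorter median length. The genomic span was 16353 bases in the median for the 169 protein-coding genes that rose with a mean of at least 10 in +*GFP* cells, 10764 for the 63 that rose at least 4-fold and 23655 for all 10591. For the 67 that fell it was 14111. These lengths are those of the deposited table and were not tested.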

How the data were processed

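RNA was sequenced from 4 cultures of immortalized *MK2*-KO macrophages, 1 library per condition, grouped by the sample titles. The authors deposited 1 table of 55356 genes with a score per library, which the study describes as DESeq2 normalized counts and which are whole numbers. The labels name DESeq2 and build GRCm38 without versions, and the aligner is not given in the sources used here. Of 52080 gene IDs found in GENCODE M21 (GRCm38), 1494 had the same position there, so no position of the table is printed. Its gene spans (end minus start) were used as deposited. Gene types and 3′ UTRs came from GENCODE M21, and promoters from RefSeq (GRCm38.p6).

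Values were not normalized again. Genes with a mean of at least 10 over the 4 libraries (12483) were kept, a pseudocount of 1 was added, and 2-fold was the threshold. A value of 0 was set to 3 counts for bounds. Python 3.11.15, numpy 2.4.6, pandas 2.3.3 and scipy 1.17.1 were used, and the interval code was checked on simulated counts. Where 2 genes carry 1 symbol, the more abundant was taken. Named genes are list members, the 20 largest rises and falls with at least 50 counts in either i*MK2*-KO +*GFP* library, and those stated as chosen later. The members, the 35 functional lists (536 genes) and the 5 marker lists were chosen with earlier results of these data known. The design had foreseen promoter shares for the changed genes, which are not given because too few of these genes had a promoter entry. Alternatives are described at the end. The result of 1 gene is not reported here.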

Additional observations from a re-analysis of the deposited data

Results flagged for a closer look

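For 5 of the named genes, the ratio after IL-1α passed 2-fold in +*GFP* cells and the interval of +*MK2* cells lay on the other side of 0. The difference between the lines was not tested in any of them, because each ratio rests on 1 library a side. *Birc3* had log2 ratios of 1.43 in +*GFP* cells and -0.20 in +*MK2* cells (534 and 466 normalized counts, interval -0.38 to -0.01). *C5ar1* had 1.14 and -0.11 (1905 and 1763 in +*MK2* cells, interval -0.21 to -0.02), so the +*MK2* intervals of *Birc3* and *C5ar1* came close to 0. *Tlr8* had -1.14 and 0.72 (66 and 109). The predicted gene *Gm17655* had -2.09 and 1.13 (21 and 47), and the pseudogene *Gm10233* had -8.17 and 7.86 (0 and 231), which with a 0 on one side of each line depend on the pseudocount.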

How the results depend on the processing

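Each alternative changed 1 choice. With TMM scaling, or with equal library totals or equal *Gapdh*, and with a pseudocount of 0.5, the counts of rises and falls and the list counts stayed within 1.5 times, and the median of all genes moved to between -0.03 and 0.00. A pseudocount of 5 left 107 falls. Without a minimum, 2377 genes rose and 2319 fell. With a minimum mean of 50 these were 146 and 39. At 1.5-fold, 587 rose and 535 fell, and at 4-fold 89 and 42. The interval lay beyond 2-fold for 139 rises and 39 falls, or for 117 and 25 with 0.5 reads for each normalized count. In alternatives added after seeing the data, 115 rose and 20 fell with a mean of at least 100 in +*GFP* cells, and 100 falls were protein-coding. Without a minimum, 13 cytokine genes rose. With a minimum of 50, 3 other immediate-early genes rose. At 1.5-fold, 11.8% of the rises also rose in +*MK2* cells. For rises of at least 4-fold, the median span was 10800 bases (rounded) and 50% held the AU-rich motif. These alternatives admit fewer or more genes by construction. *Sqstm1*, at 2.01-fold, was under 2-fold with each of the 3 scalings (log2 ratio 0.99 with TMM and 0.96 with the others), which left 2 of the redox genes, and *Gsdmd* dropped out of the inflammasome list, which left 2. With equal *Gapdh* and with a pseudocount of 5, 5 other immediate-early genes rose, without *Phlda1* (log2 ratio just under 1 and 0.96).

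No paired analysis was possible because each condition has 1 library, and for the same reason leaving out a library was not possible. Genes under about 30 counts are the least certain. At a mean of 10 to 30, 8.2% rose and 9.13% fell in +*GFP* cells, and 5.18% rose and 6.97% fell in +*MK2* cells.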
